A study of Mus musculus with 7 samples.

Results

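Cytosolic ribosomal protein genes, whose products form the large (Rpl) and the small (Rps) subunit of the ribosome outside mitochondria, were followed across chromatin immunoprecipitation (ChIP) libraries of the NF-kB subunits RelB and RelA. Members were all regions whose assigned gene has a name of Rpl or Rps followed by a digit, without the kinases of the Rps6k family, and which lay within 100 kb of that gene's transcription start site (TSS). There were 209 such regions among 93611, of which 61 had the deposited annotation class promoter and 148 had other classes. They belonged to 76 genes: 37 genes of large subunit proteins, 26 genes of small subunit proteins and 13 paralogs, pseudogenes or other genes caught by the name, such as Rpl22l1, Rps27l and Rps19bp1. A promoter region was present for 55 genes, 50 of them canonical subunit genes. Just inside the distance limit lay regions of Rpl38 at -99550 and -97219 bp and of Rpl34 at -88463 bp, with WT RelB levels at 1 h of 2.91, 6.78 and 1.39 RPKM. Just outside lay regions of Rps23 at 118327 bp and of Rpl34 at -143553 and -148600 bp, with 0.985, 24.4 and 3.12 RPKM in the same library.

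All libraries came from bone marrow-derived dendritic cells (BMDCs) of C57BL/6 mice, antigen-presenting cells that were raised with 20 ng/ml of GM-CSF plus 10 ng/ml of IL-4. Cells were wild type (WT) or lacked RelB (RelBko), and were harvested untreated (0 h) or 1 h into treatment with 10 ng/mL of lipopolysaccharide (LPS). The RelB antibody was used on each genotype at each time and the RelA antibody on each genotype after LPS, and input DNA of WT cells, with no time or treatment in its label, gave the background. The antibody is taken from each library's own label; the protocol text that all libraries share names the RelA antibody alone. Each of the 7 groups held 1 library, so no difference below has a replicate check, and the labels do not say how many mice a culture came from or how the RelBko allele was made. The study asked how loss of RelB bears on the binding of RelA to DNA. Values are RPKM, reads per region scaled by region length and library total. Intervals of ratios are exact 95% intervals of the recovered reads, and they cover counting error only. They were counted for ribosomal protein promoters only, so those counts have no share of all promoters beside them.

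Ribosomal proteins are made in equal amounts for every new ribosome, and their genes are among the most highly transcribed in growing cells. Their promoters are compact and rich in GC, often carry sites for ETS factors and YY1, and start transcription within a run of pyrimidines that ties translation of the mRNA to growth signals. RelA is the NF-kB subunit that enters the nucleus within minutes of an inflammatory signal, and RelB is best known from dendritic cell maturation and the noncanonical pathway. Several ribosomal proteins have further roles: Rps3 has been described as a partner of RelA, Rpl5, Rpl11 and Rpl23 bind the p53 regulator MDM2, and Rps19, Rps10, Rps26 and Rpl35a are mutated in Diamond-Blackfan anaemia.

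Library totals recovered from the RPKM values ran from 13188833 reads in the input to 35064429 in WT RelB at 0 h. With the RelB antibody, the signal at the promoter of Relb itself was 104 and 49.3 RPKM in WT at 0 h and 1 h against 11.9 and 4.18 RPKM in RelBko. At 1 h, 97.8% of all compared promoters were at least 2-fold higher in WT with this antibody. The Relb promoter is therefore no separate check of the allele. Regions lay near 8 of 8 dendritic cell marker genes, with a highest WT RelB level at 0 h of 49.1 to 180 RPKM per gene, while neutrophil markers reached 1.48 to 13.3 RPKM (4 of 5 genes), B cell markers 0.744 to 9.85 RPKM (3 of 4) and T and NK cell markers 14.4 to 66.2 RPKM (4 of 4). These are levels of bound chromatin, not of RNA, and their part in the results was not tested.

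Promoter sequences from RefSeq (GRCm38.p6) are shown in 2 sets. The first set holds the promoters of Rps19 and Rpl13, the strongest of all, and of Rpl6, whose RelA signal was far above its RelB signal. Each runs 5′ to 3′ from 250 bases before a RefSeq start to 30 bases after it, and capitals mark every match to a loose kappaB pattern, GGG and CC separated by any 5 bases, on either strand. The windows are chr7:24884426-24884705 (plus strand), chr8:123102100-123102379 (plus strand) and chr5:121204251-121204530 (plus strand).
Rps19: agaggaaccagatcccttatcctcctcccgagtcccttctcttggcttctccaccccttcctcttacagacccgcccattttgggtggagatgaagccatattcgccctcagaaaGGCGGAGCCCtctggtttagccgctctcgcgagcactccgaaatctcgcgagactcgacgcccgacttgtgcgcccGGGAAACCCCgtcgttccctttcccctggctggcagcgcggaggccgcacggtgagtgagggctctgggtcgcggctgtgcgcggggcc
Rpl13: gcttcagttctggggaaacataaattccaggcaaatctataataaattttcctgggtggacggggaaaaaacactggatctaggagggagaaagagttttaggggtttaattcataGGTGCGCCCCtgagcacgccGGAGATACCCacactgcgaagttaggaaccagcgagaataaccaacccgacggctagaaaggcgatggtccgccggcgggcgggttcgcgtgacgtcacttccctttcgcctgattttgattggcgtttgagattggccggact
Rpl6: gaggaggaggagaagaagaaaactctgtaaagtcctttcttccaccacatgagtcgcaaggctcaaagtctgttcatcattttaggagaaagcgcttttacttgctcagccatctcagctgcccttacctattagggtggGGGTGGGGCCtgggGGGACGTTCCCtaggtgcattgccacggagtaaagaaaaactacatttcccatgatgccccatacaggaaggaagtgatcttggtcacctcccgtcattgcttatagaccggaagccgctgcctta
The match of Rps19 at -59 to -50 from the start reads the same pattern on both strands, the matches of Rpl13 lay at -134 to -125 and -114 to -105, and Rpl6 held 3 matches between -110 and -86.

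A loose kappaB match was found in 28 of 45 windows (62.2%) of the 38 ribosomal protein genes with a promoter region and a RefSeq window on the same chromosome. It was found in 70.1% of 9451 windows of all genes with a promoter region in the deposited table and in 50.8% of all 32851 RefSeq windows. The strict form, GGGA followed by A or C and then TTTCC, was in 0 of the 45 windows, against 0.476% and 0.244%. CCGGAAG, an ETS core, was in 33.3% of the ribosomal protein windows (17.2% and 8.86% in the other sets), and AAGATGG, a YY1 core, in 17.8% (6.57% and 6.34%). GGGGCGG, the core known as the GC box, which can fall inside a loose kappaB match, was in 28.9% (43.9% and 23.2%). All of these were searched on both strands of 300 bases. CTTTCC on the sense strand, which reads as the mRNA does, from 5 bases before the start to 50 after it, was in 31.1% (2.22% and 2.32%). The second set shows that start region in 6 genes chosen because each holds CTTTCC there, 30 bases to either side of the start, with capitals for CCGGAAG, for AAGATGG on either strand and for CTTTCC from 5 bases before the start onwards.
Rpl38, chr11:114668550-114668609, plus strand: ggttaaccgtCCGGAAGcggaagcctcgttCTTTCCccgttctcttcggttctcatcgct
Rpl35a, chr16:33056452-33056511, plus strand: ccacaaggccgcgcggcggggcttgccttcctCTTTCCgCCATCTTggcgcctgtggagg
Rpl18, chr7:45718041-45718100, plus strand: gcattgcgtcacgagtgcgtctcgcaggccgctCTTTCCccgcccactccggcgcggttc
Rpl13a, chr7:45128716-45128775, minus strand: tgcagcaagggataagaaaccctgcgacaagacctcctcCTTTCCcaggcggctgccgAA
Rpl28, chr7:4792935-4792994, plus strand: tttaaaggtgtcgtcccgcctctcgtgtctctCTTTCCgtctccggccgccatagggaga
Rps10, chr17:27635215-27635274, minus strand: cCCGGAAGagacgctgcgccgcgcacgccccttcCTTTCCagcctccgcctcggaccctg
The last 2 capitals of Rpl13a begin an AAGATGG match that runs past the window. A match says only that these letters are present. No window was matched for 16 further genes with a promoter region, among them Rps20 and Rpl7. Several promoters belong to genes with more than 1 RefSeq window, so the windows are not independent.

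Signal at ribosomal protein promoters was moderate in every WT library and below that of the typical promoter. The median over the 61 promoters was 6.68 RPKM for WT RelB at 0 h, 7.78 for WT RelB at 1 h, 8.49 for WT RelA and 9.80 for RelBko RelA, against medians over all 10262 promoters of 9.34, 10.8, 11.9 and 13.0 RPKM. Those medians stood above 34.5%, 34.9%, 34.0% and 37.3% of all promoters. The RelBko RelB libraries gave 3.17 RPKM at 0 h and 1.86 at 1 h, and the input 1.35, close to the medians of all promoters (3.34, 1.67 and 1.27). The 148 other regions of the same genes had lower medians in all 7 libraries, from 4.23, 4.88 and 4.98 RPKM in the WT libraries to 0.963 in the input. Promoters exceeded the other regions 1.58-fold, 1.59-fold and 1.70-fold in WT RelB at 0 h, WT RelB at 1 h and WT RelA, 2.45-fold and 1.90-fold in RelBko RelB at 0 h and 1 h, 2.16-fold in RelBko RelA and 1.40-fold in the input. For all promoters over all other regions within 100 kb, the ratios in that order were 1.82, 1.82, 2.15, 2.37, 1.63, 2.58 and 1.42. An excess at promoters was thus not particular to these genes. The input ratio of 1.40 was measured in the same regions and shows how far the 2 kinds of region differed before any immunoprecipitation. The highest values lay outside promoters: a region of Rps27l reached 170 RPKM, while no ribosomal protein promoter passed 36.4 RPKM in any library.

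**Figure D1:**
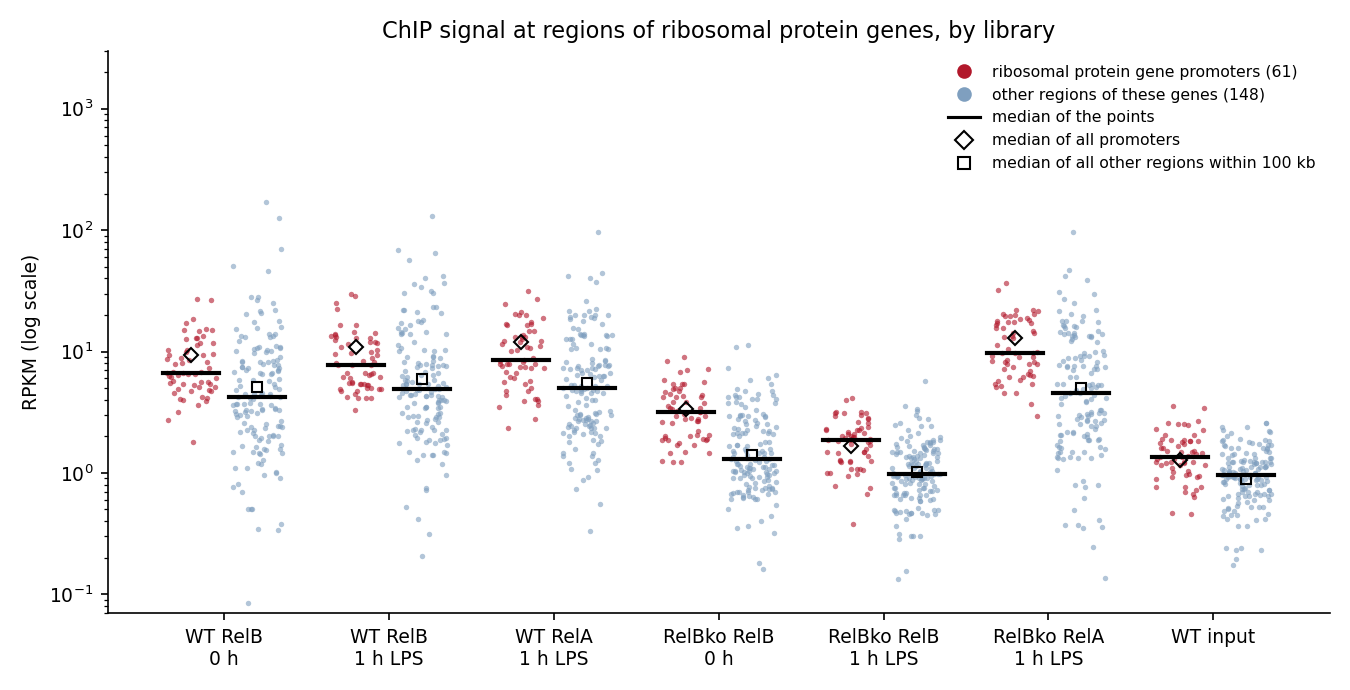
RPKM (log scale) of each ribosomal protein gene region in the 7 libraries; points are regions, split into 61 promoters and 148 other regions, black bars their medians, and open symbols the medians of all promoters and of all other regions within 100 kb. Promoter medians lie between 6.68 and 9.80 RPKM in the WT libraries and RelBko RelA, and at 3.17, 1.86 and 1.35 RPKM in RelBko RelB at 0 h, at 1 h and in the input.

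Rps19, a small subunit protein needed for maturation of the small subunit's RNA, had the strongest promoter. Its region at +36 bp (chr7:25669421-25669873, mm9) carried 26.7 RPKM in WT RelB at 0 h, 28.9 at 1 h, 31.2 in WT RelA and 36.4 in RelBko RelA, against 7.20 and 3.17 RPKM in RelBko RelB and 1.84 in input. A second Rps19 promoter region at -480 bp was weaker, with 17.1, 12.0 and 16.7 RPKM in the same WT libraries. Rpl13, a large subunit protein, was the only other gene above 25 RPKM for RelB at both times: its region at +56 bp (chr8:125626103-125626510, mm9) held 27.2 and 29.9 RPKM for WT RelB, 13.1 for WT RelA, 19.8 for RelBko RelA, 4.49 and 1.26 for RelBko RelB and 1.49 in input.

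Rpl27a, Rps20, Rps27a, Rpl24 and Rps12 came next, with 12.9 to 16.7 RPKM for WT RelB at 1 h. At the other end, Rpl3, a core protein near the catalytic centre of the large subunit, held 2.72, 4.26 and 2.35 RPKM in WT RelB at 0 h, at 1 h and in WT RelA, against 0.966 in input. Rps3, the described RelA partner, also sat low, with 4.53 and 5.53 RPKM for WT RelB, 4.77 for WT RelA, 5.07 for RelBko RelA, 2.66 and 1.01 for RelBko RelB and 1.49 in input. Rpl10 and Rpl38 stood at 4.89 and 10.8 RPKM for WT RelB at 1 h, Rpl11 at 9.55 and Rpl13a, known from an inflammation-linked complex that silences translation, at 12.0. Large subunit promoters (34 regions) had a median of 8.67 RPKM and small subunit promoters (22 regions) of 7.24 RPKM in that library, and both spanned wide ranges, 3.32 to 29.9 and 4.13 to 28.9 RPKM.

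**Figure D2:**
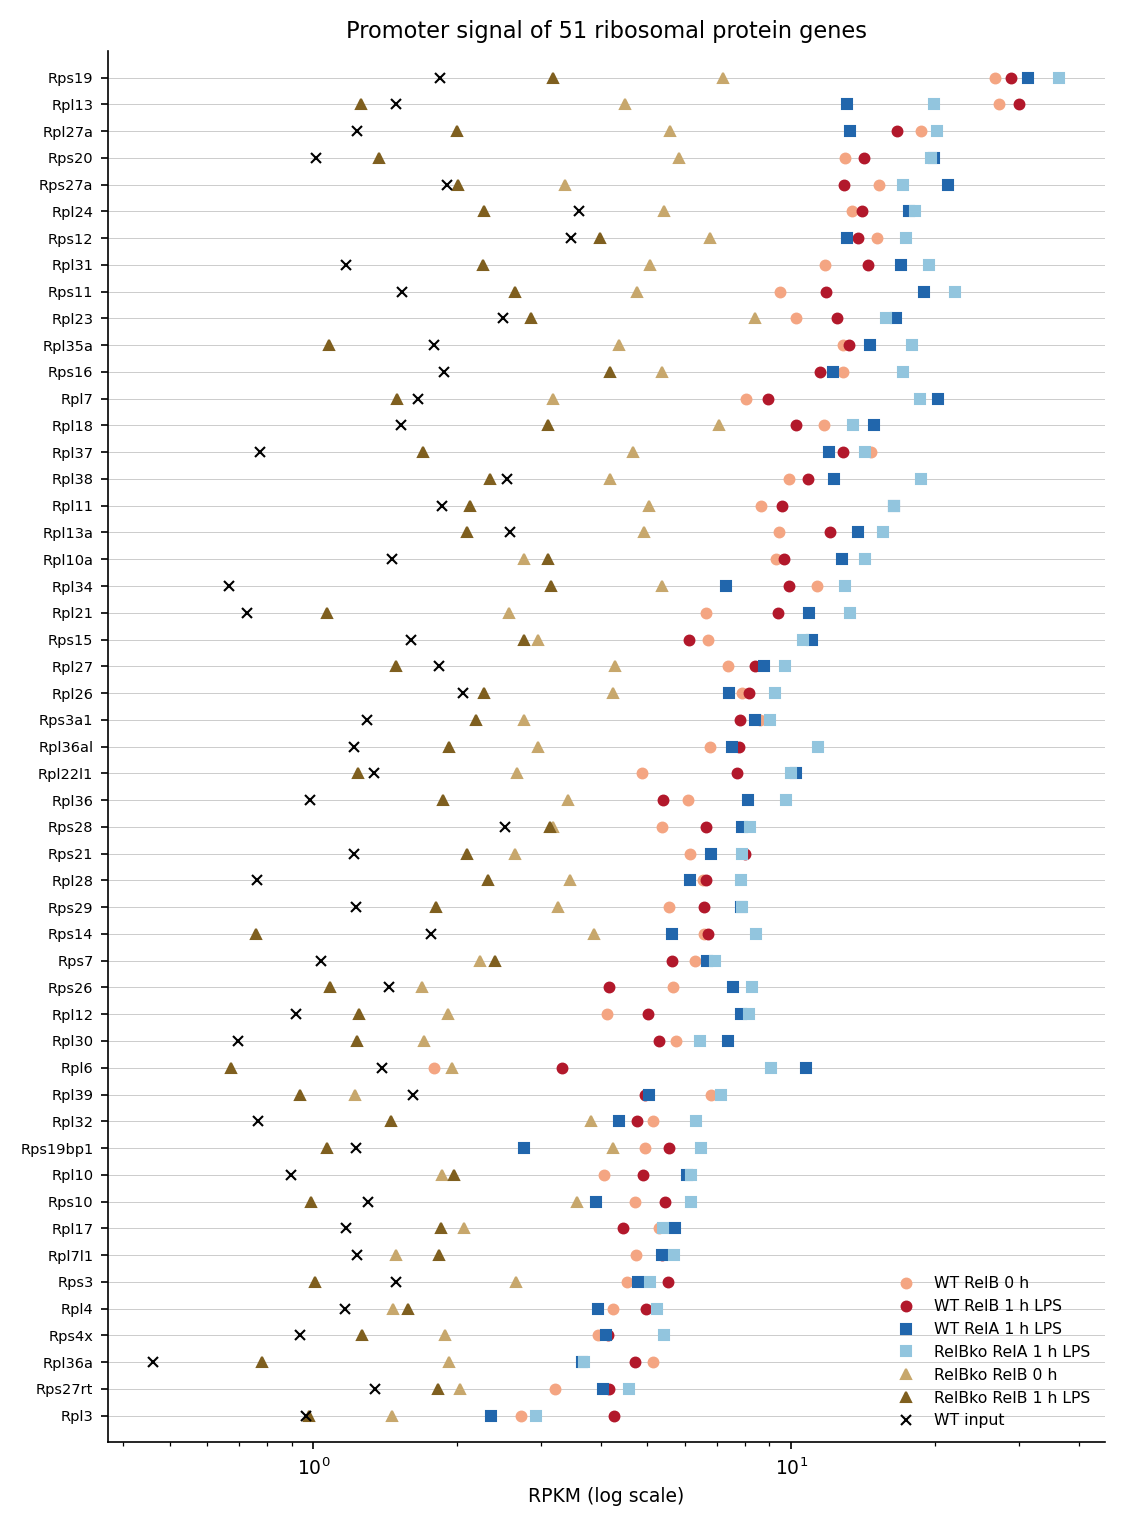
RPKM (log scale) at the promoter of 51 ribosomal protein genes, 1 region per gene, ordered by the mean of the 6 ChIP libraries; each symbol is 1 library. Rps19 and Rpl13 lead; the RelBko RelB libraries (triangles) lie nearest to the input (crosses), and Rpl6, Rpl7 and Rpl13 show the widest gaps among the 3 WT ChIP libraries.

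Ribosomal protein promoter regions lay between -649 and 842 bp from the TSS. Of the 61, 38 lay within 100 bp of the TSS (62.3%, against 56.6% of all promoters), and their median length was 398 bp (381 bp for all promoters). Across the 61 promoters the order of levels was shared between libraries: Spearman's rho was 0.83 between WT RelB and WT RelA at 1 h, 0.88 between WT RelB at 0 h and 1 h, and 0.91 between RelA in WT and RelBko. It was 0.74 between RelB in WT and RelBko at 0 h, 0.52 at 1 h, and 0.40 between WT RelB at 0 h and input. These values describe 61 regions that share libraries, region lengths and base composition.

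A region was called enriched at 2 RPKM or more and 2-fold or more over input, with 0.5 RPKM added to both. For WT RelB, 58 of 61 ribosomal protein promoters were enriched at 0 h (90.3% of all promoters were) and 61 of 61 at 1 h (93.3%). For RelA, 58 were enriched in WT (95.7%) and 61 in RelBko (95.4%). In RelBko, the RelB antibody still enriched 25 promoters at 0 h (52.3%) and 3 at 1 h (11.7%). Of the 148 other regions, 106, 117 and 119 were enriched in WT RelB at 0 h, WT RelB at 1 h and WT RelA, where the shares of all other regions were 74.4%, 80.7% and 81.5%. In RelBko the other regions enriched numbered 30 for RelB at 0 h (21.5%), 8 at 1 h (5.94%) and 101 for RelA (75%).

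With the RelB antibody after LPS, signal was higher in WT than in RelBko at nearly all ribosomal protein promoters, as it was across the table. Of 61 compared promoters, 60 were at least 2-fold higher in WT and 0 lower, where 97.8% and 0.0209% of all compared promoters were. The median log2 ratio was 1.83, against 2.43 for all promoters. Rpl13 differed most: 29.9 RPKM (347 reads) in WT and 1.26 RPKM (10 reads) in RelBko, a ratio of 23.8 (12.8 to 50.1). Rpl35a held 13.2 against 1.08 RPKM, Rps19 28.9 against 3.17 and Rps20 14.2 against 1.37. The smallest differences were those of Rps28 (6.63 against 3.13 RPKM), Rps27rt (4.16 against 1.82), Rps15 (6.10 against 2.76), Rpl17 (4.44 against 1.85) and Rps7 (5.63 against 2.40). Rps28, a small subunit protein, was the only promoter not called, at a log2 ratio of 0.98 with 0.5 RPKM added, and the interval of its read ratio ran from 1.29 to 3.60. All 61 intervals lay above 1, a count not made for all promoters. Over all compared regions the median log2 ratio was 2.47. Scaled so that this median is 0, the median of ribosomal protein promoters was -0.64, and 1 promoter was called higher and 14 lower, where 9.79% and 8.96% of all promoters were. This scaling takes the same amount off every region, so a set whose median lies under that of the table turns negative by construction.

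Before stimulation, RelB signal was again higher in WT at all 58 compared promoters, by a smaller median. Of these promoters, 35 were at least 2-fold higher in WT and 0 lower, where 74.3% and 0.14% of all promoters were, and the median log2 ratio was 1.13 (1.38 for all promoters). Rpl13 again differed most, with 27.2 against 4.49 RPKM, a ratio of 6.06 (4.22 to 8.99). Rpl39 held 6.78 against 1.22 RPKM, Rps27a, which is made as a fusion with ubiquitin, 15.3 against 3.35, Rps19 26.7 against 7.20 and Rpl27a 18.7 against 5.57. The smallest differences were those of Rps19bp1, Rpl23, Rps10, Rpl32 and Rps27rt: Rps19bp1 held 4.95 against 4.24 RPKM, Rpl23 10.3 against 8.40, Rps10 4.71 against 3.56, Rpl32 5.13 against 3.81 and Rps27rt 3.21 against 2.03. Rpl6 was not compared at 0 h, because neither library passed the enrichment rule (1.79 RPKM in WT, 1.95 in RelBko). Of the 61 read ratios, 54 had intervals above 1 and 7 held 1, a count not made for all promoters. Scaled to a median ratio of 1 over all compared regions, which removes a shift of 1.85 on the log2 scale, the median of these promoters was -0.72, with 0 higher and 17 lower (5.35% and 17.9% of all promoters). Scaled instead on regions without enrichment, 9 promoters were higher at 0 h (41.0% of all promoters) and 32 at 1 h (83.2%).

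The other regions of these genes showed the same contrast. At 1 h, 109 of 117 compared were higher in WT and 0 lower (95.7% and 0.119% of all other regions), with a median log2 ratio of 2.17 (2.49). At 0 h, 91 of 111 were higher and 2 lower (87.5% and 0.532%), with a median of 1.67 (1.93). The region of Rps26 at 15808 bp held 31.4 RPKM (321 reads) in WT and 0.285 RPKM (2 reads) in RelBko at 1 h, a ratio of 110 (30.2 to 913). The region of Rpl24 at -11863 bp held 125 and 64.8 RPKM in WT at 0 h and 1 h and 4.89 and 1.20 in RelBko. The 2 regions called lower in WT at 0 h rested on few reads: the region of Rpl13a at -3505 bp had 3 reads against 11, and that of Rps19bp1 at 3469 bp had 6 against 14.

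**Figure D3:**
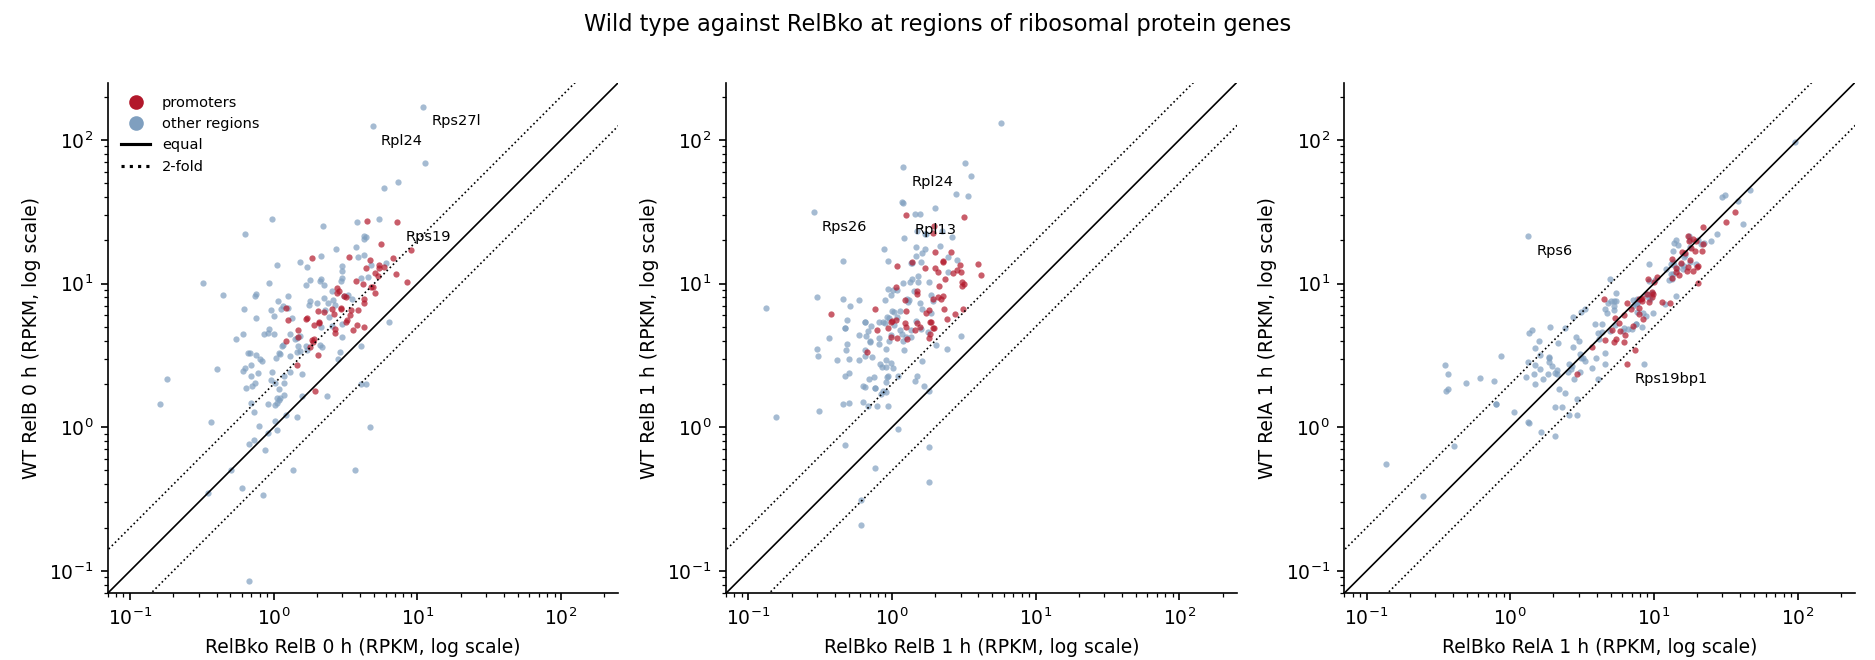
WT signal (vertical axis) against RelBko signal (horizontal axis), both in RPKM on log scales, for RelB at 0 h, RelB at 1 h and RelA at 1 h; each point is 1 ribosomal protein gene region, the solid line marks equal values and dotted lines 2-fold. All 61 promoters lie above the upper dotted line for RelB at 1 h (60 passed the 2-fold call, which adds 0.5 RPKM), and nearly all lie between the dotted lines for RelA, where the Rps6 exon region stands apart.

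In WT cells, RelB signal after 1 h of LPS was within 2-fold of the untreated level at 60 of 61 ribosomal protein promoters. In all, 1 was called higher at 1 h and 0 lower, where 4.26% and 0.37% of all promoters were, and the median log2 ratio was 0.13 (0.17 for all promoters). Among the larger ratios at the strongest promoter region of a gene was that of Rpl6, a large subunit protein, with 1.79 and 3.32 RPKM, followed by Rpl22l1, the paralog of Rpl22, with 4.86 and 7.69, Rpl3 with 2.72 and 4.26, and Rpl21 with 6.62 and 9.40. Among the lowest ratios were those of Rpl39 (6.78 and 4.93 RPKM), Rps26 (5.66 and 4.16), Rps27a (15.3 and 12.9) and Rpl17 (5.29 and 4.44). Of the 61 intervals, 11 lay above 1, 1 below 1 and 49 held 1, a count not made for all promoters. With all regions scaled to a median ratio of 1, a shift of 0.14, the promoter median was -0.01, so its sign is not settled.

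There were 6 genes with 2 promoter regions, and 2 of them, Rpl13 and Rpl27a, are named here after their values were seen, because the time ratios of their regions differed. Rpl13 at -474 bp held 15.1 RPKM for RelB at 0 h and 25.3 at 1 h, a ratio of 1.67 (1.37 to 2.04), where its region at +56 bp gave 1.10 (0.949 to 1.28). Rpl27a at 430 bp held 8.85 and 16.5 RPKM, a ratio of 1.86 (1.46 to 2.39), where its region at -107 bp held 18.7 and 16.7, a ratio of 0.892 (0.716 to 1.11). In each pair the intervals of the time ratios did not overlap.

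In RelBko the RelB antibody gave lower values after LPS than before. Of 25 compared promoters, 0 were higher and 15 lower at 1 h (0.0368% and 50.9% of all promoters), with a median log2 ratio of -1.07 (-1.01). Rps20 held 5.81 RPKM at 0 h and 1.37 at 1 h, Rpl35a 4.35 and 1.08, Rpl13 4.49 and 1.26, Rpl23 8.40 and 2.86, and Rps19 7.20 and 3.17. Of the 61 intervals, 26 lay below 1 and 35 held 1, a count not made for all promoters. These libraries held a median of 26 and 14 reads per ribosomal protein promoter. The fraction of reads in all regions was 7.41% at 0 h and 4.62% at 1 h, and its part in the result was not tested. With all regions scaled to a median ratio of 1, 0 promoters were called lower (2.98% of all promoters).

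Outside promoters, 15 of 125 compared regions were higher and 1 lower in WT at 1 h against 0 h (12.1% and 1.75% of all other regions), with a median log2 ratio of 0.18 (0.14). The largest lay around Rpl34 on chromosome 3. The region of Rpl34 at -65106 bp (chr3:130498240-130498604, mm9) held 6.80 RPKM at 0 h and 40.5 at 1 h for WT RelB, 26.2 for WT RelA and 41.6 for RelBko RelA, against 1.25 and 3.37 for RelBko RelB. A region of intron class at 2186 bp (chr3:130430889-130431234, mm9) carries the name of the pseudogene Rpl34-ps1. RefSeq has Rpl34-ps1 on chromosome 6, and the region lies close to the Rpl34 promoter, so the assigned name is doubtful. This region held 4.95 and 36.1 RPKM, a ratio of 7.30 (5.54 to 9.76). The nearby Rpl34 promoter (chr3:130433145-130433486, mm9) held 11.3 and 9.88. The region called lower was that of Rpl37a at 2866 bp, with 4.44 and 1.48 RPKM. In RelBko, 1 of 31 other regions was higher and 15 lower (1.03% and 42% of all other regions), with a median log2 ratio of -0.99 (-0.90).

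RelA signal at ribosomal protein promoters was present without RelB and close to its WT level. Of 61 promoters, 1 was at least 2-fold higher in RelBko and 0 lower (0.458% and 0.966% of all promoters), and the median log2 ratio of RelBko over WT was 0.20 (0.08 for all promoters). The promoter called higher was that of Rps19bp1, a gene for a protein that binds Rps19 and no ribosomal protein itself, with 2.76 RPKM (21 reads) in WT and 6.47 RPKM (67 reads) in RelBko, a ratio of 2.34 (1.42 to 4.03). Rpl34 held 7.31 and 12.9 RPKM and Rps10 3.90 and 6.18. On the low side were Rpl37 at 842 bp (7.82 and 4.51 RPKM) and Rps27a (21.3 and 17.1). Rpl11 was equal in both, at 16.4 RPKM, Rps3 held 4.77 and 5.07, Rpl13a 13.8 and 15.5, Rpl10 6.05 and 6.17 and Rpl38 12.3 and 18.7. Of the 61 intervals, 13 lay above 1, 1 below 1 and 47 held 1. The same count was not made for all promoters, so it shows nothing particular to these genes. Under other pseudocounts and scalings the count of promoters higher in RelBko ran between 0 and 3, and the share of all promoters between 0.262% and 0.804%.

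Among other regions, 2 of 126 were higher in RelBko and 11 lower (1.4% and 5.26% of all other regions), with a median log2 ratio of -0.01 (-0.08). The largest difference at any ribosomal protein gene for RelA was in an exon of Rps6, the small subunit protein that S6 kinases phosphorylate. That region at 1159 bp (chr4:86501956-86502269, mm9) held 21.4 RPKM (118 reads) in WT RelA and 1.33 RPKM (10 reads) in RelBko RelA, a ratio of 0.0622 (0.0291 to 0.119). The other 5 libraries held 1.18 and 3.47 RPKM (WT RelB at 0 h and 1 h), 1.46 and 0.653 (RelBko RelB) and 1.21 (input). The value thus stood out in 1 library only, and the Rps6 region at 136 bp held 5.20 and 7.55 RPKM for RelA in WT and RelBko. The region of Rps16 at -1580 bp held 2.72 RPKM (17 reads) in WT RelA and 0.353 RPKM (3 reads) in RelBko RelA, beside 10.1 and 14.1 RPKM for WT RelB.

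RelB and RelA gave like levels at most ribosomal protein promoters in WT cells after LPS. Of 61 promoters, 1 was at least 2-fold higher for RelB and 2 were lower (1.11% and 7.07% of all promoters), with a median log2 ratio of RelB over RelA of -0.18 (-0.10). The 2 antibodies differ, so a ratio near 1 says nothing of the amounts of the proteins bound. Rpl13 at +56 bp was higher for RelB, with 29.9 against 13.1 RPKM, a ratio of 2.28 (1.81 to 2.90), while its second promoter region at -474 bp held 25.3 and 24.6 RPKM. Rpl6 was lower for RelB, with 3.32 against 10.7 RPKM, a ratio of 0.309 (0.201 to 0.468). Its RelA signal was 9.07 RPKM in RelBko, and its RelB signal in WT at 0 h, 1.79 RPKM, did not exceed the RelBko value of 1.95. Rpl7, a large subunit protein, held 8.92 RPKM for RelB and 20.3 for RelA, a ratio of 0.439 (0.360 to 0.536), and 18.6 for RelA in RelBko. Of the 61 intervals, 3 lay above 1, 16 below 1 and 42 held 1, a count not made for all promoters.

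Of 132 other regions compared, 11 were higher for RelB and 13 lower (7.51% and 7.67% of all other regions), with a median log2 ratio of 0.13 (0.18). Rps16 at -1580 bp, with 14.1 RPKM for RelB and 2.72 for RelA, and Rps26 at 15808 bp, with 31.4 and 10.7, led on the RelB side. Rps6 at 1159 bp (3.47 and 21.4 RPKM) and Rps20 at 23017 bp (5.75 and 20.1) led on the RelA side among regions above 20 RPKM. The comparisons share libraries: WT RelB at 1 h enters 3 of them, so their values are not independent.

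**Figure D4:**
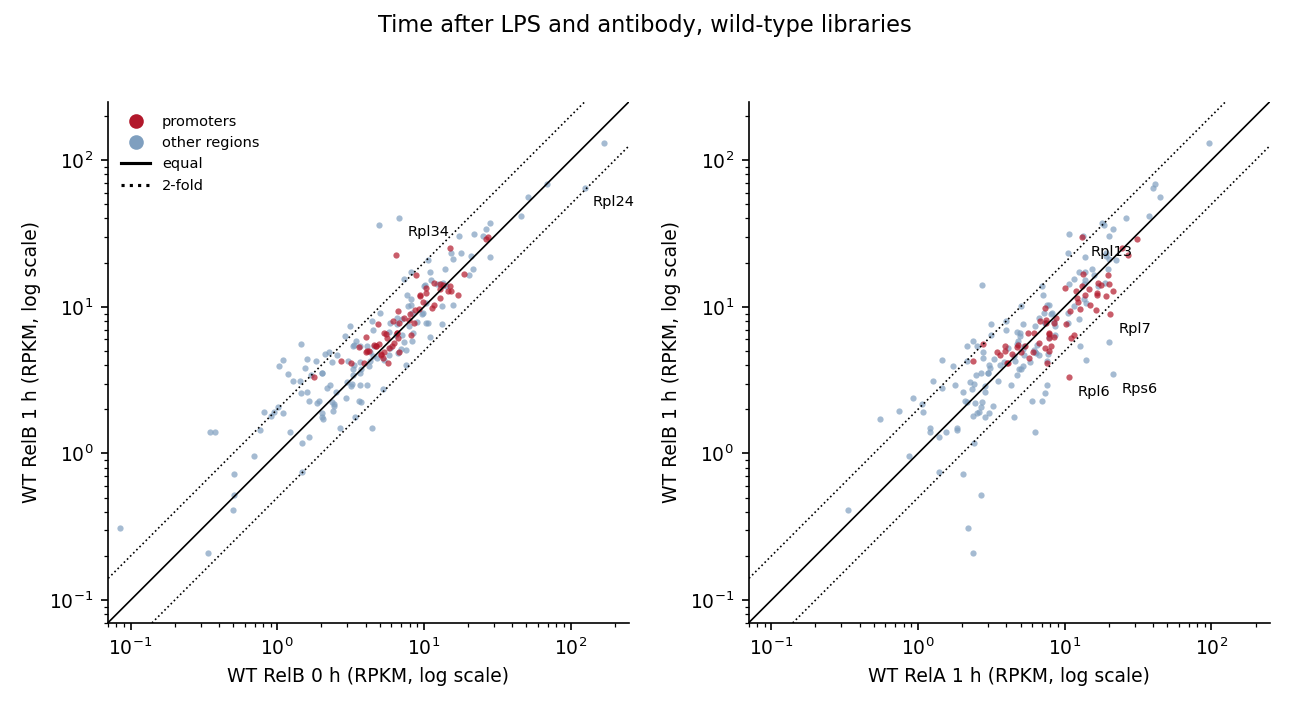
WT RelB signal at 1 h (vertical axis) against WT RelB at 0 h (left) and WT RelA at 1 h (right), in RPKM on log scales; each point is 1 ribosomal protein gene region, the solid line marks equal values and dotted lines 2-fold. On the left 1 promoter lies above the 2-fold line, and Rpl34 and Rpl34-ps1 are the other regions with the largest ratios. On the right the promoter of Rpl13 lies above and those of Rpl6 and Rpl7 below the 2-fold lines. The Rps19bp1 promoter (5.54 against 2.76 RPKM) lies just above the upper line but was not called, since the call adds 0.5 RPKM.

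The strongest regions assigned to ribosomal protein genes lay outside promoters, and assignment is by distance alone. The region of Rps27l, a stress-linked paralog of Rps27, at -3331 bp (chr9:66790357-66790767, mm9) held 170 and 131 RPKM for WT RelB, 96.1 for WT RelA, 95.9 for RelBko RelA, 11.0 and 5.74 for RelBko RelB and 1.66 in input. Rpl24 at -11863 bp (chr16:55954333-55954718, mm9) held 125, 64.8 and 40.2 RPKM in the WT libraries, while the Rpl24 promoter held 13.4, 14.1 and 17.7. Rps4l at -71125 bp held 69.4, 68.6 and 41.5 RPKM, Rps15a at -1622 bp 51.0, 56.3 and 44.7, and Rps27rt at 52860 bp 45.9, 41.8 and 37.4. Rps4l and Rps27rt were thus farther from the start than most members. The names Rps27rt and Rpl34-ps1 stand on chromosome 3 in the deposited table and on chromosomes 9 and 6 in RefSeq.

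Among canonical genes, 13 had regions but none of promoter class, and several of these had signal just downstream of the start. Rps23 at 105 bp held 11.1, 15.3 and 13.7 RPKM in WT RelB at 0 h, WT RelB at 1 h and WT RelA, with 15.5 in RelBko RelA, 4.50 and 2.46 in RelBko RelB and 1.60 in input. Rpl29 at 147 bp held 14.0, 18.0 and 19.8 RPKM in the WT libraries and Rpl5 at 113 bp 13.5, 14.6 and 18.9, both in the class of the leader exon. Rpl22 at 159 bp, in an exon, held 7.87, 7.37 and 8.62 RPKM, and Rps13 at 109 bp, in an intron, 7.07, 8.27 and 12.6. Of the 73 canonical genes in the RefSeq table, 10 had no region under their own name within 100 kb: Rpl7a, Rpl9, Rpl15, Rpl19, Rpl23a, Rpl41, Rps2, Rps18, Rps25 and Rps27. For Rps27 this may be a matter of naming. RefSeq has Rps27 on chromosome 3, where the regions named Rps27rt lie, and Rps27rt on chromosome 9. Whether those regions belong to Rps27 was not checked.

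Related gene sets, 1 promoter region per gene, were read beside the 55 ribosomal protein genes. Ribosomal genes outside the name pattern (6 of 7 with a promoter region) included some far stronger promoters: Rpsa, the laminin receptor and small subunit protein, held 37.8, 51.2 and 24.3 RPKM in WT RelB at 0 h, WT RelB at 1 h and WT RelA, and Rack1, a scaffold on the small subunit, 34.6, 22.4 and 29.2. For RelB in WT over RelBko at 1 h, 97.8% of all compared promoters were higher, and the sets were near that share. All 6 genes outside the name pattern were higher, as were 54 of 55 ribosomal protein genes, 17 of 17 ribosome biogenesis genes, 9 of 9 translation factor genes, 42 of 43 mitochondrial ribosomal protein genes and 6 of 6 NF-kB reference genes. The median log2 ratios in that order were 2.86, 1.77, 2.33, 2.39, 2.10 and 3.71. For RelA in RelBko over WT the medians were 0.13, 0.20, 0.08, 0.18, 0.19 and -0.05. In these sets 1 ribosomal protein gene (Rps19bp1) and 1 mitochondrial ribosomal protein gene were called higher and 0 lower (0.458% and 0.966% of all promoters). For RelB at 1 h over 0 h in WT the medians were 0.03, 0.12, 0.30, 0.08, 0.11 and -0.41. Here 1 ribosomal protein gene was called higher and 0 genes of any of these sets lower (4.26% and 0.37% of all promoters). Levels of the reference genes give the scale: Nfkbia, which encodes the inhibitor IkBa, held 328, 207 and 190 RPKM in the WT libraries, and Tpt1, among the translation factors, 57.2, 59.5 and 58.5.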

How the data were processed

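ChIP of RelB and RelA and an input were sequenced from BMDCs in 7 groups of 1 library each. The deposited values are RPKM over 93611 regions, per the file headers, in mm9, with the authors' nearest gene, distance to its TSS and annotation class. The submitters' processing notes name HISAT2, HOMER and bedtools; how each was used, their versions, the handling of reads that map to more than 1 place and the choice of regions are steps not given in the sources used here. Ribosomal protein genes have many near-identical processed pseudogenes, so reads of exons could be placed wrongly. Per the labels, the crosslinkers were 1.0 mM DSG and 1.0% PFA. A CpG oligonucleotide's name also stands in the treatment protocol; LPS is used here because the sample titles give it.

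Reads per region were recovered as whole multiples of the smallest step (100% of values within 0.01 read); 1 read may have been added to every count before scaling. The input held a median of 8 reads and the WT RelB library at 0 h 109 reads per ribosomal protein promoter, so precision differs between libraries. Log2 ratios used RPKM with 0.5 RPKM added, which understates the change of weak regions. Regions enriched (2 RPKM or more and 2-fold or more over input) in at least 1 of the 2 libraries were compared and called at 2-fold. No test was run, since each group held 1 library; intervals of read ratios are exact (Clopper-Pearson). The members, lists and rules were chosen with earlier results of these data known. Named genes were the 5 promoters with the highest mean, the 5 largest and the 5 smallest ratios per comparison, 11 genes of known further roles where measured, and the 5 strongest other regions; extremes among other regions were named after their values were seen. A few genes that the rule names are not reported here, though all regions enter the counts. Each gene was represented by its promoter region of highest mean RPKM. RefSeq windows (GRCm38.p6) were used for sequence only. Rps27rt, which had a promoter region but lies on another chromosome in RefSeq, was left out of them. Calculations used Python 3.11.15, pandas 2.3.3, numpy 2.4.6 and scipy 1.17.1. The calls were tested on simulated reads with changes placed only in strong regions of the WT RelB libraries. Most ribosomal protein promoters were weaker, so that test does not show how the calls behave at their levels. Alternatives covered pseudocount, filters, fold, scaling, promoter definition, members and read offset.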

Additional observations from a re-analysis of the deposited data

Results flagged for a closer look

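As deposited, the median ratio of RelB signal at 1 h over 0 h lay above 1 in WT and below 1 in RelBko, and the difference between the genotypes was not tested, since each group held 1 library. Scaled to a median ratio of 1 over all compared regions, the medians of compared promoters were -0.014 and -0.14 on the log2 scale, on the same side, and 49 of 61 intervals in WT held 1. Over all 61 ribosomal protein promoters the median log2 ratio of 1 h over 0 h was 0.13 in WT and -0.70 in RelBko. Over the 148 other regions of these genes it was 0.19 in WT and -0.42 in RelBko. Single promoters with a higher value at 1 h in WT and a lower one in RelBko numbered 35 of 61 (57.4%, against 63.1% of all promoters), and other regions 64 of 148 (43.2%, against 41.9% of all other regions). Rps20 held 13.0 and 14.2 in WT and 5.81 and 1.37 in RelBko. In RelBko, 7.41% of reads fell in the regions of the table at 0 h and 4.62% at 1 h; the part of this in the difference was not tested.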

How the results depend on the processing

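No paired analysis was possible because each group held 1 library, and for the same reason no replicate could be left out. Over 11 alternatives and 31 results, 238 of 273 values kept their direction with a change too small to count as moved, 32 moved and 3 reversed. The 238 did not all keep their size. With the median ratio set to 1, the promoter median of RelBko 1 h over 0 h went from -1.07 to -0.14 (log2) and is among them. The call threshold does not enter a median, so medians at 1.5-fold equal the main values by construction and are also among the 238. Setting the median ratio of all compared regions to 1 removed shifts of 2.47 (WT over RelBko at 1 h), 1.85 (0 h) and 0.14 (WT 1 h over 0 h) on the log2 scale. Each shift exceeded the median log2 ratio of ribosomal protein promoters, so these turned negative by construction, to -0.64, -0.72 and -0.014. It left 8, 11 and 12 promoters enriched in WT RelB at 0 h, WT RelB at 1 h and WT RelA and 11 and 15 in RelBko RelB at 0 h and RelBko RelA. Promoters called higher became 1 (WT over RelBko at 1 h), 0 (0 h) and 3 (RelA), and lower 14, 17 and, for RelBko 1 h over 0 h, 0; of all promoters, 9.79%, 5.35% and 0.677% were higher and 8.96%, 17.9% and 2.98% lower. Scaled on regions without enrichment, 32, 9 and 3 were higher (1 h, 0 h, RelA), against 83.2%, 41.0% and 0.717% of all promoters. At 5 RPKM, 10 and 0 promoters were enriched in RelBko RelB at 0 h and 1 h. With time in RelBko, 8 of 10 compared were then lower (64.8% of all promoters). The share of all promoters enriched was not computed under the alternatives. RelBko RelB at 1 h had 5 enriched with 1 read taken off, 5 with promoters defined by 1000 bp and 6 with a pseudocount of 0.1. RelA in RelBko over WT had 2 higher with 1 read taken off (0.707% of all promoters) and 3 at a pseudocount of 0.1 (0.804%). It had 0 at a pseudocount of 1 (0.262%) and 0 among canonical genes (0.458%). A pseudocount of 1 left 7 of 20 compared lower with time in RelBko (41.8% of all promoters). The 1000 bp definition gave 2 of 77 higher with time in WT (5.29%). At 1.5-fold, 53 were higher in WT over RelBko at 0 h (92.4% of all promoters) and 5 with time in WT (13.4%). At that threshold 6 were higher and 1 lower for RelA in RelBko (5.04% and 4.19%). For RelB over RelA, 3 were higher and 9 lower (6.04% and 18.0%). Leaving out the filter on low values gives no count of enriched promoters. Reads per promoter had a median of 26 and 14 in the RelBko RelB libraries and 8 in the input. A cause of the other changes was not tested.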
